A study of Mus musculus with 12 samples.

Results

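DNA methylation was compared between 3 colonic adenomas that lacked Tet1 and 9 adenomas that kept at least 1 functional copy of it. The comparison covered every autosomal CCCGGG site read at least 50 times in each of the 12 adenomas, which held for 14181 of the 173449 sites in the tables. Of these, 12978 had reads of both methylation states and were tested. The question was which differences accompany complete loss of Tet1, as opposed to loss of a single copy or to mutation of Tdg.

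The Tet1 null adenomas came from C57BL/6J mice of genotype Tet1-/- Tdg+/+ ApcMin/+ (n = 3). The 9 others, called carriers here, were 3 control adenomas (Tet1+/+ Tdg+/+ ApcMin/+), 3 Tdg heterozygous adenomas (Tet1+/+ TdgN151A/+ ApcMin/+) and 3 double heterozygous adenomas (Tet1+/- TdgN151A/+ ApcMin/+). Every adenoma therefore carried ApcMin, a truncating allele of a tumour suppressor that gives mice many intestinal adenomas, and the mice were 150 to 160 days old at death. Loss of a single Tet1 copy was present only together with TdgN151A, so it can be compared only within that background. The Tet1 null adenomas lack TdgN151A, which the Tdg heterozygous and double heterozygous carriers have, so the main comparison also differs in Tdg. The labels say only that mutant mice were crossed, and name no promoter or Cre driver. Whether a genotype's 3 adenomas grew in different mice is not stated either. The tests therefore compare differences with the variation among these 12 adenomas, which may be smaller than that among mice.

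Active removal of DNA methylation begins when a Tet enzyme such as Tet1 oxidises the methyl group, in steps that pass through hydroxymethyl-, formyl- and carboxylcytosine. The glycosylase Tdg excises formyl- and carboxylcytosine, and base excision repair then fills in an unmethylated cytosine. N151A replaces an asparagine in the active site of Tdg. Tet1 binds DNA rich in unmethylated CpG, and CpG islands are the stretches of the mammalian genome that are normally kept free of methylation. In intestinal tumours many such islands gain methylation.

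Methylation was read by digital restriction enzyme analysis. SmaI cuts CCCGGG while the central CpG is unmethylated, XmaI cuts the methylated sites that remain, and the end of each read tells which enzyme made it. The level of a site is the share of its reads that XmaI made. Levels below are the authors' percentages after adjustment with spiked standards. A level measured in bulk adenoma DNA cannot tell a change within cells apart from a change in the mixture of cells.

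Total reads were 8213211 to 18527831 in the Tet1 null adenomas and 2349576 to 18865833 in the carriers, and the median depth at tested sites was 439 to 976 and 111 to 976 reads. The lowest values belong to double heterozygous adenoma 3. The unmethylated standard read 0.14 to 1.26% in Tet1 null adenomas and 0.12 to 1.51% in carriers, a difference of 0.0339 points (two-sided exact permutation test, p = 0.891). By reads on the Y chromosome, 2 of 3 Tet1 null adenomas and 5 of 9 carriers were male, among them all 3 double heterozygous adenomas. Tet1 itself was not checked, since the sites were not assigned to genes here.

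Loss of Tet1 was accompanied by gains of methylation and almost no losses. Methylation was higher in Tet1 null adenomas at 426 sites (3.28% of the 12978 tested) and lower at 5 sites (0.0385%; edgeR's quasi-likelihood test, Benjamini-Hochberg adjusted p under 0.05), or at 431 in all (3.32%). The gain at these sites had a median of 8.24 percentage points and quartiles of 2.77 and 21.3 points. The median level at these 426 sites was 10.6% in Tet1 null adenomas and 2.43% in carriers. Over all tested sites the median levels were 2.04% and 1.35%, with a median difference of 0.06 points. The carriers' mean was below 5% at 7326 of the 12978 sites (56.4%), which leaves little room for a fall there.

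The size of the rise varied widely. It was at least 5 points at 263 of the 426 sites, at least 10 points at 192, at least 20 points at 116 and at least 50 points at 6. At 49 sites the rise was under 1 point, which is less than the spread of the unmethylated standard between libraries. The groups did not overlap at 245 of the 426 rises (57.5%): each Tet1 null adenoma exceeded each carrier. Over all tested sites 409 (3.15%) were ordered in this way, and 9 (0.0693%) in the opposite way.

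**Figure D1:**
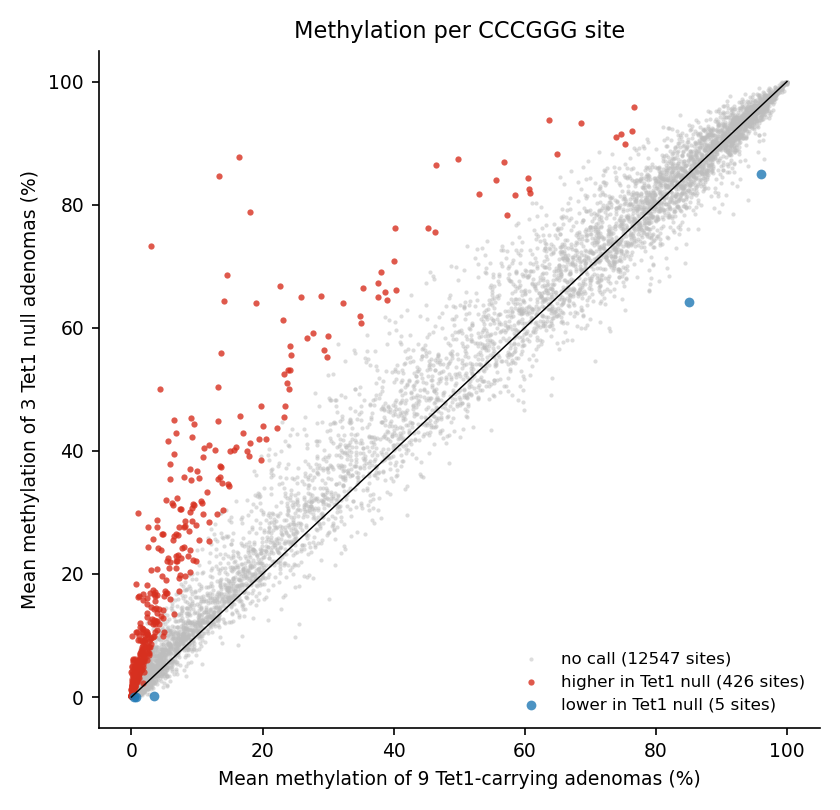
Mean methylation per site in the 3 Tet1 null adenomas (y axis, %) against the mean of the 9 carriers (x axis, %), 1 point per tested site, with the line of equality. The 426 higher sites (red) lie above the line mostly at low carrier levels, and the 5 lower sites are blue.

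The number of called sites depended on the libraries and on the test. It was 267 without Tet1 null adenoma 2 and 243 without Tet1 null adenoma 3, while the 10 fits that each left out another adenoma gave 354 to 533. Limma on log2 ratios of methylated to unmethylated reads called 163 sites, all of them higher and all among the 431. Centring each adenoma on the median of the 2840 sites with a mean level of 20 to 80% left 47 calls, all higher. This centring lowered every site's difference by 0.318 on the log2 scale, turned the median over all sites from 0.129 to -0.19, and took the share of sites with a positive difference from 64.5% to 31.8%.

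The same fit called almost no differences among the carriers. Control adenomas differed from the mean of the Tdg heterozygous and double heterozygous adenomas at 0 sites (0.0%; 576 at an unadjusted p under 0.05, against 1520 for Tet1 null adenomas against carriers). Tdg heterozygous adenomas differed from the mean of the other carriers at 1 site (0.00771%), and so did double heterozygous adenomas (1 site, 0.00771%). At an unadjusted p under 0.05 they differed at 388 and 600 sites, and 488 of the 600 were higher in double heterozygous adenomas. Double heterozygous and Tdg heterozygous adenomas, which differ by 1 copy of Tet1, differed at 0 sites (0.0%; 393 at an unadjusted p under 0.05). Limma called 0 sites in each of these 4 contrasts. At an unadjusted limma p under 0.05, control, Tdg heterozygous and double heterozygous adenomas against the other carriers gave 271, 183 and 787 sites. Double heterozygous against Tdg heterozygous adenomas gave 506, and Tet1 null adenomas against carriers gave 820.

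Both single sites were small in level or set by few adenomas. On chromosome 2 (mm9), position 170822710 was at 89.2, 87.4 and 97.1% in the Tdg heterozygous adenomas and at a mean of 98.8% in control and 96.9% in double heterozygous adenomas (edgeR adjusted p = 0.0496). On chromosome 9, position 20673421 was at 0.31, 10.03 and 1.21% in the double heterozygous adenomas and at 0 to 0.66% in the other carriers (edgeR adjusted p = 0.0124). The second rested on 1 adenoma.

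Set against each carrying genotype in turn, the Tet1 null adenomas were higher at 295 sites and lower at 2 against control (2.27% and 0.0154% of sites, 2.29% together). They were higher at 291 and lower at 0 against Tdg heterozygous adenomas (2.24% and 0.0%), and higher at 131 and lower at 1 against double heterozygous adenomas (1.01% and 0.00771%, 1.02% together; edgeR adjusted p under 0.05 in each). These 3 contrasts share the Tet1 null adenomas. Without Tet1 null adenoma 3 the totals became 154, 184 and 73. Limma called 65, 103 and 11 sites.

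Of the 20 largest rises without overlap, 16 were at sites where the carriers' mean was below 20%, and 4 at sites with a higher carrier mean, up to 46.5%. On chromosome 18, position 43741702 was at 93.2, 78.7 and 91.4% in Tet1 null adenomas 1 to 3. The 9 carriers ranged from 3.21 to 37.05% (median 11.9%). No carrier came within 41.6 points of the lowest Tet1 null value, and the difference in means was 71.4 points (edgeR adjusted p = 2.84e-21).

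On chromosome 16, position 35660144 was at 96.2, 74.5 and 83.1% in Tet1 null adenomas and at 10.1 to 19.6% in carriers (median 11.5%). With 55.0 points between the groups, this was the widest gap among the 20 named rises (edgeR adjusted p = 3.25e-20). Position 35660504, 360 bp away, was at 91.2, 54.7 and 74.1% and at 0.79 to 5.89% (median 2.44%). It had the smallest p of all tested sites (edgeR adjusted p = 3.94e-27). Tet1 null adenoma 2 was the lowest of the 3 at both positions. Neighbouring sites are not independent measurements.

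A further pair on chromosome 16 lay 525 bp apart. Position 91140483 was at 78.03, 66.1 and 61.7% in Tet1 null adenomas and at 4.75 to 29.9% in carriers (edgeR adjusted p = 1.09e-11). Position 91139958 was at 46.2, 48.4 and 40.4%, and carriers were at 2.79 to 10.1% (edgeR adjusted p = 8.28e-10). The 3 Tet1 null adenomas thus differed from each other by less at the second position than at most of the other large rises. Tet1 null adenomas were closer still to each other on chromosome 9 at position 107281178, with 52.6, 48.0 and 50.4% against 4.34 to 25.03% (edgeR adjusted p = 2.71e-07).

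On chromosome 3, position 118138315 was at 94.8, 56.3 and 85.1% in Tet1 null adenomas and at 4.25 to 34% in carriers (edgeR adjusted p = 7.44e-15). On chromosome 8, position 10154587 was at 74.3, 52.8 and 65.8% and at 3.21 to 31.2% (edgeR adjusted p = 1.46e-10). Both were higher in all 3 Tet1 null adenomas by over 20 points than in the highest carrier.

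Chromosome 14 held 5 of the 20 named rises. Position 109311177 was at 80, 39.0 and 31.3% in Tet1 null adenomas and at 1.01 to 15.9% in carriers, with double heterozygous adenoma 1 the highest carrier and the next at 5.27%. Its neighbour at 109311469 was at 78.7, 33.7 and 12.4% against 2.07 to 9.64%. Tet1 null adenoma 1 stood far above the other 2 at both. These positions belong to a run of 4 tested sites between 109311177 and 109312055, all of which rose. Averaged over the run, the Tet1 null adenomas were at 69.5, 24.3 and 13.96% and the carriers at 2.50 to 10.3%.

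Of the other 3 rises on chromosome 14, position 75856108 was at 74.8, 54.0 and 63.3% against 4.89 to 44.1%, and position 75856491, 383 bp away, at 34.1, 64.5 and 30.05% against 1.85 to 15.2%. The adenoma with the highest level differed between these neighbours. At position 14766131 the Tet1 null adenomas were at 95.6, 80.3 and 83.2%, and the carriers spread from 11.2 to 79.5%. The gap was 0.82 points, and this was the 1 named rise that limma did not call (limma adjusted p = 0.0603).

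The remaining 7 named rises were on chromosomes 12 (position 31568610, 66.8% in Tet1 null adenomas against 22.6% in carriers, as means), 5 (144519106, 55.8% against 13.7%), 13 (100671030, 61.2% against 23.2%), 3 (107261130, 45.4% against 9.06%), 7 (29957246, 65.1% against 29.0%), 2 (115678106, 44.4% against 9.59%) and 10 (77127124, 42.3% against 9.26%). Across the 20 the difference in means was 33.1 to 71.4 points and the largest edgeR adjusted p was 0.000296. They were read 53 to 1976 times per adenoma. Tet1 null adenoma 1 had the highest level at 16 of the 20 sites.

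**Figure D2:**
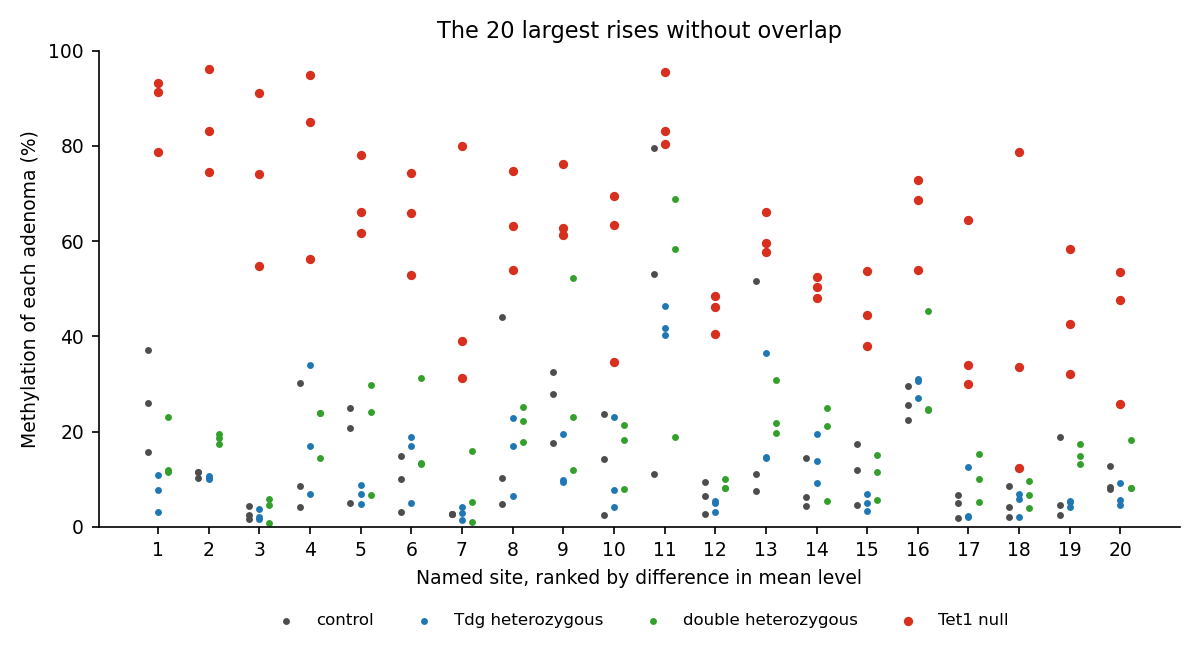
Methylation of each adenoma (y axis, %) at the 20 rises with the largest difference among called sites without overlap (x axis, rank by difference). In each column the 3 Tet1 null adenomas (large red points) lie above all 9 carriers, by 0.82 points at rank 11 and by 55.0 points at rank 2.

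A single fall separated the groups. On chromosome 9, position 101244178 was at 51.4, 74.1 and 66.9% in Tet1 null adenomas and at 79.1 to 89.1% in carriers (edgeR adjusted p = 0.0312; limma adjusted p = 0.0968). The call was lost in 5 of the 12 fits that left out 1 adenoma, with an edgeR adjusted p of 0.30 without Tet1 null adenoma 1. The other 4 falls are named after their values were seen, and their groups overlapped. Positions 33487096 on chromosome 2 and 139767331 on chromosome 7 were at 0% in all Tet1 null adenomas and at 0 to 0.85% and 0 to 1.52% in carriers. Position 112513755 on chromosome 12 was at 0 to 0.39% against 0.15 to 14.97%, and position 52635348 on chromosome 18 at 68.4 to 95.5% against 92.9 to 97.9%, where Tet1 null adenoma 1 alone was below 90%. Limma called none of the 5 falls.

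Classed by the carriers' mean, rises were most frequent among sites that carriers methylated slightly. Of sites below 1% in the carriers' mean, 137 of 6264 rose (2.19%), by a median of 1.51 points. At 1 to 5% in carriers 134 of 1062 sites rose (12.6%), by a median of 6.97 points, and at 5 to 20% 102 of 1087 (9.38%), by 21.2 points. At 20 to 80% 53 of 2794 rose (1.90%), by 27.4 points, and at 80% and above 0 of 1771 rose and 2 fell. The share that rose over all sites was 3.28%. Levels near 100% leave no room for a rise of this size. The carriers' mean is also 1 side of the difference that defines a rise, so these classes are not independent of it. By the mean over all 12 adenomas, 217 of 7231 sites below 5% rose, and 135 of 1121 at 5 to 20%. At 20 to 80% 72 of 2840 rose, and at 80% and above 2 of 1786. The largest share in this classing was at 5 to 20%. The shares in both classings carry no test.

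Crowding of recognition sites was a second description that used no methylation value. With 0, 1 or 2 other CCCGGG sites within 500 bp, 30 of 691 (4.34%), 263 of 7918 (3.32%) and 99 of 2509 (3.95%) sites rose. With 3 or more neighbours 34 of 1860 rose (1.83%). Among sites below 5% in carriers the shares were 6.19%, 4.60%, 3.55% and 1.72% in the same order. Among sites at 5 to 80% in carriers they were 3.83%, 3.55%, 7.63% and 4.44% (4 of 90 sites in the last), so the decline with crowding was seen at low levels and not at these. Below 5%, the median carrier level also fell with crowding (0.202, 0.0756, 0.04 and 0.0339%). The part of level in the decline was not tested. The median rise was 11.8, 10.1, 5.29 and 2.63 points from 0 to 3 or more neighbours, but crowded sites also started from lower levels. Below 5% in carriers the medians were 2.06, 4.54, 3.06 and 2.1 points, with no steady order, and at 5 to 80% they were 29.4, 23.2, 24.1 and 18.3 points.

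Rises were spread over all 19 autosomes. The share of tested sites that rose ran from 1.74% on chromosome 17 (11 of 632) to 5.59% on chromosome 14 (24 of 429). Chromosome 10, which carries both Tet1 and Tdg, had 34 rises at 690 sites (4.93%), and chromosomes 6 and 18 had the nearly equal shares of 4.93% (30 of 609) and 4.91% (19 of 387). On chromosome 14 the median rise was 21.8 points, above the 8.24 points over all rises.

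Part of the rises lay next to each other. When tested sites no more than 500 bp apart were joined into 6864 runs, 337 runs held a rise, and 83 held at least 2. Of the 337, 295 held at least 2 tested sites, and in 69 of these all tested sites rose. The 303 sites without a call in runs with a rise were higher in Tet1 null adenomas in 246 cases (81.2%), against 64.5% of all tested sites. When reads were summed over each run, 274 of 6864 runs were called, all higher.

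After the run on chromosome 14, the runs with the most rises held 3 each. One on chromosome 7 between 128535480 and 128536471 had 5 tested sites, at a mean of 18.3, 8.87 and 6.39% in Tet1 null adenomas and 1.78 to 6.26% in carriers. Another on chromosome 9 between 45238947 and 45239800 had 4 tested sites. It averaged 6.12, 7.78 and 10.8% against 1.91 to 20.2%, where Tdg heterozygous adenoma 2 was the highest of all 12. In the last 2, on chromosome 6 (29477508 to 29478135) and chromosome 3 (97671110 to 97672245), the levels were low in both groups, at a mean of 1.76% against 0.235% and of 1.35% against 0.295%.

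The gains were also counted separately in each adenoma. A site was counted as gained where the median of the 11 other adenomas was below 5% and the adenoma itself was at 15% or more. Tet1 null adenomas 1 to 3 gained at 35 of 7373 sites (0.475%, 95% Clopper-Pearson interval 0.331 to 0.660), 41 of 7378 (0.556%, 0.399 to 0.753) and 43 of 7379 (0.583%, 0.422 to 0.784), where the intervals cover counting error only. The 9 carriers gained at 0.0136 to 0.136% of such sites (median 0.0543%), or 1 to 10 sites each. Every Tet1 null adenoma was above every carrier, with means of 0.538% ± 0.0562 (SD, n = 3) and 0.0740% ± 0.0491 (n = 9). The two-sided exact permutation test gave p = 0.00909, the smallest that 3 against 9 allow (adjusted 0.0394 over 13 measures). The 1 female Tet1 null adenoma had the highest share of the 3, and the highest carriers, at 0.136%, were control 1, Tdg heterozygous 2 and double heterozygous 2, all male.

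Some gains recurred in every Tet1 null adenoma. Measured against the median of the 9 adenomas of other genotypes, 13 of 7411 eligible low sites were gained in all 3 Tet1 null adenomas, 18 in 2 of them and 75 in 1. In each of the control, Tdg heterozygous and double heterozygous genotypes, 0 sites were gained in all 3 adenomas and 0 in 2. There, 15 of 7316, 12 of 7325 and 18 of 7364 eligible sites were gained in 1. The 13 sites lay in 13 separate runs on 11 chromosomes. At 9 of them no carrier overlapped the Tet1 null values, while at the other 4 one carrier or a pair of them exceeded the lowest Tet1 null value, up to 34.9%.

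Several of these 13 were not among the largest rises and are given here because of the low carrier levels. On chromosome 11, position 113927258 was at 33.2, 23.7 and 32.6% in Tet1 null adenomas and at 0.43 to 1.96% in carriers (edgeR adjusted p = 6.49e-20). On chromosome 3, position 81949021 was at 32.6, 21.9 and 28.4% and at 1.5 to 3.77% (edgeR adjusted p = 3.43e-11). On chromosome 1, position 121316246 was at 33.6, 22.6 and 20.8% and at 1.60 to 6.37% (edgeR adjusted p = 8.77e-09). The 13 sites had been selected by a low median of the carriers and a gain in each Tet1 null adenoma. These examples were then picked for low carrier levels, so the contrast between the groups follows from the selection. Their edgeR p-values come from the same values and are no separate test of it. The highest carrier level among these examples was 6.37%, in double heterozygous adenoma 3 at position 121316246.

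**Figure D3:**
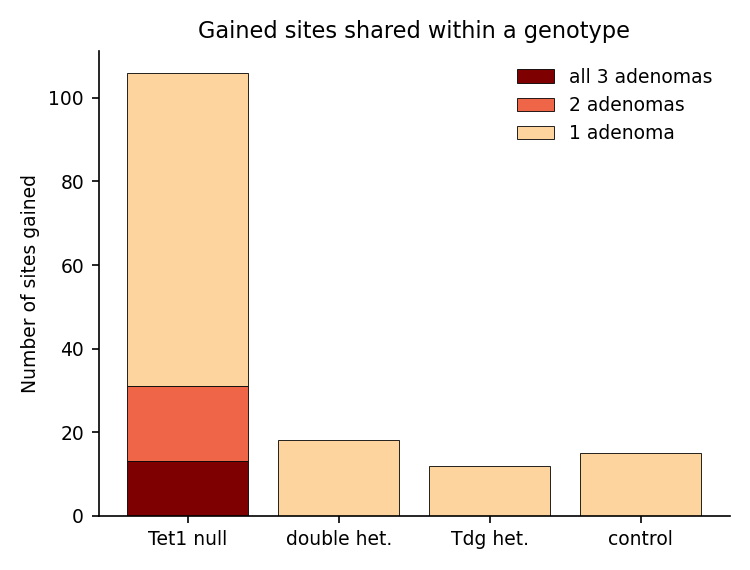
Number of sites gained (y axis) in 1, 2 or all 3 adenomas of each genotype (x axis), where the median of the 9 adenomas of the other genotypes was below 5% and the adenoma at 15% or more. The Tet1 null bar holds 13 sites shared by all 3 adenomas and 18 shared by 2, and the other bars hold sites of single adenomas.

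Losses did not separate the groups. A site was lost where the median of the 11 others was above 80% and the adenoma at 60% or less. The Tet1 null adenomas lost 2.11, 0.0529 and 0.262% of such sites and the carriers 0.211 to 2.99% (median 1.30%). Tet1 null adenoma 2 was the lowest of all 12 and Tet1 null adenoma 1 exceeded 7 of the 9 carriers, with a difference of -0.49 points (two-sided exact permutation test, p = 0.464). Without Tet1 null adenoma 1 the difference was -1.07 points (exact permutation test, p = 0.0364, not adjusted). In the Tet1 null genotype 0 of 1905 eligible high sites were lost in all 3 adenomas and 0 in 2, while 40 were lost in 1. The double heterozygous genotype had likewise 0, 0 and 34 (of 1901). The control genotype had 0, 11 and 79 (of 1990), and the Tdg heterozygous genotype 1, 8 and 76 (of 1897).

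**Figure D4:**
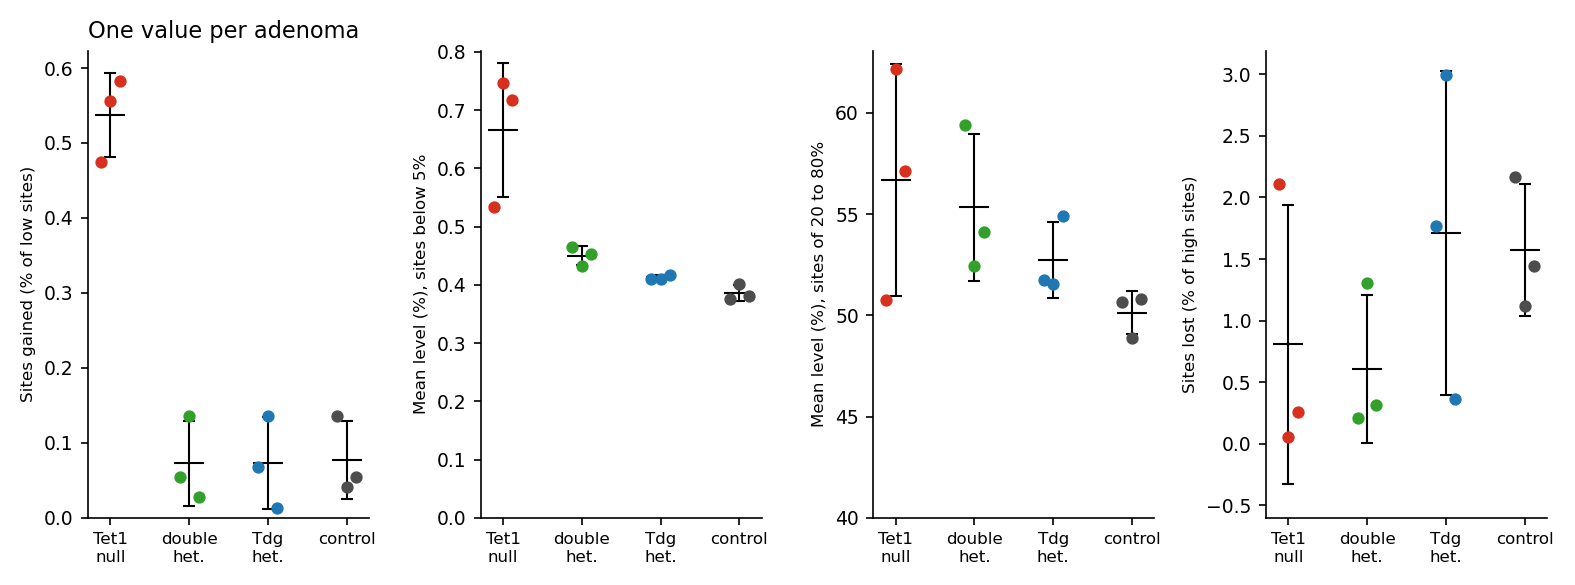
From left, share of low sites gained, mean level of sites with a mean below 5%, mean level of sites at 20 to 80% (axis from 40%), and share of high sites lost, each in %, by genotype (x axis), with 1 point per adenoma and bars for mean ± SD (n = 3). The 3 Tet1 null adenomas lie above all others in the first 2 panels and overlap with them in the others.

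Averages over classes of sites separated the groups at low levels and not at high ones. Sites with a mean below 5% over the 12 adenomas were at 0.534, 0.747 and 0.718% in Tet1 null adenomas and at 0.376 to 0.465% in carriers (7231 sites, difference 0.250 points, two-sided exact permutation test, p = 0.00909, adjusted 0.0394). Tet1 null adenomas were above all carriers. Within the carriers the 3 double heterozygous adenomas (0.432 to 0.465%) were above the others, and the 3 controls (0.376 to 0.402%) were lowest. Sites with 3 or more neighbours were at 2.93, 3.22 and 3.20% in Tet1 null adenomas and at 2.73 to 2.92% in carriers (exact permutation test, p = 0.00909, adjusted 0.0394). The group differences in these classes, 0.250 and 0.303 points, were smaller than the spread of the unmethylated standard between libraries (0.12 to 1.51%). So were the differences among carriers. The other neighbour classes did not pass after adjustment. With 2 neighbours the means were 12.4% and 11.3%, and Tet1 null adenoma 1 (11.6%) was below double heterozygous adenoma 1 (12.2%; exact permutation test, p = 0.0182, adjusted 0.0591). With 0 and 1 neighbours the differences were 1.98 and 1.79 points (exact permutation test, p = 0.136 and p = 0.173).

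At higher levels the groups overlapped. Sites at 5 to 20% were at 12.3, 17.2 and 15.7% against 8.60 to 16.2% in carriers (exact permutation test, p = 0.0364, adjusted 0.0945), and the p was above 0.05 in 6 of the 12 comparisons that left out 1 adenoma. Sites at 20 to 80% were at 50.8, 62.2 and 57.1% against 48.9 to 59.4% (exact permutation test, p = 0.182). Tet1 null adenoma 1 was inside the range of the carriers there, although it was the highest of all adenomas at most of the largest rises. The mean over all tested sites was 26.5% ± 1.73 (SD, n = 3) and 25.01% ± 0.977 (n = 9), a difference of 1.45 points (exact permutation test, p = 0.145).

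The rises were then read in adenomas that had no part in calling them. Without Tet1 null adenoma 1, 436 sites were called higher, and in that adenoma 247 of them (56.7%) lay above all 9 carriers, against 10.3% of all tested sites. Without Tet1 null adenoma 2 there were 264, of which 200 (75.8%) lay above all carriers in it, against 24.5% of all sites. Without Tet1 null adenoma 3 there were 242, of which 183 did so (75.6%), against 17.8%. Each Tet1 null adenoma thus lay above all carriers at most of the rises called from the other 2. Its level was below theirs: Tet1 null adenoma 1 had a median of 6.15% at the sites called without it, where the other 2 had 10.25% and the carriers 2.04%. The medians were 13.1, 16.0 and 3.12% for Tet1 null adenoma 2 and 10.6, 15 and 2.42% for Tet1 null adenoma 3. The carriers took part in these calls, and the sites were selected where carriers were lower. Part of each share above all carriers therefore follows from the selection, for which the share over all tested sites is not matched.

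Left out in the same way, 8 of the 9 carriers exceeded all remaining carriers at 6.76 to 16.8% of the rises called without them, against 5.59 to 10.6% of all sites. The exception was double heterozygous adenoma 1, at 36.5% of 526 rises, against 24% of all sites. Its median level there was 3.67%, where the remaining carriers were at 2.43% and the Tet1 null adenomas at 10.47%. It was nearer the Tet1 null mean than the carriers' mean at 22.6% of these sites, against 52.9% of all tested sites. Each other carrier was so at 2.43 to 12.1% of the rises called without it, against 38.5 to 47.7% of all tested sites.

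**Figure D5:**
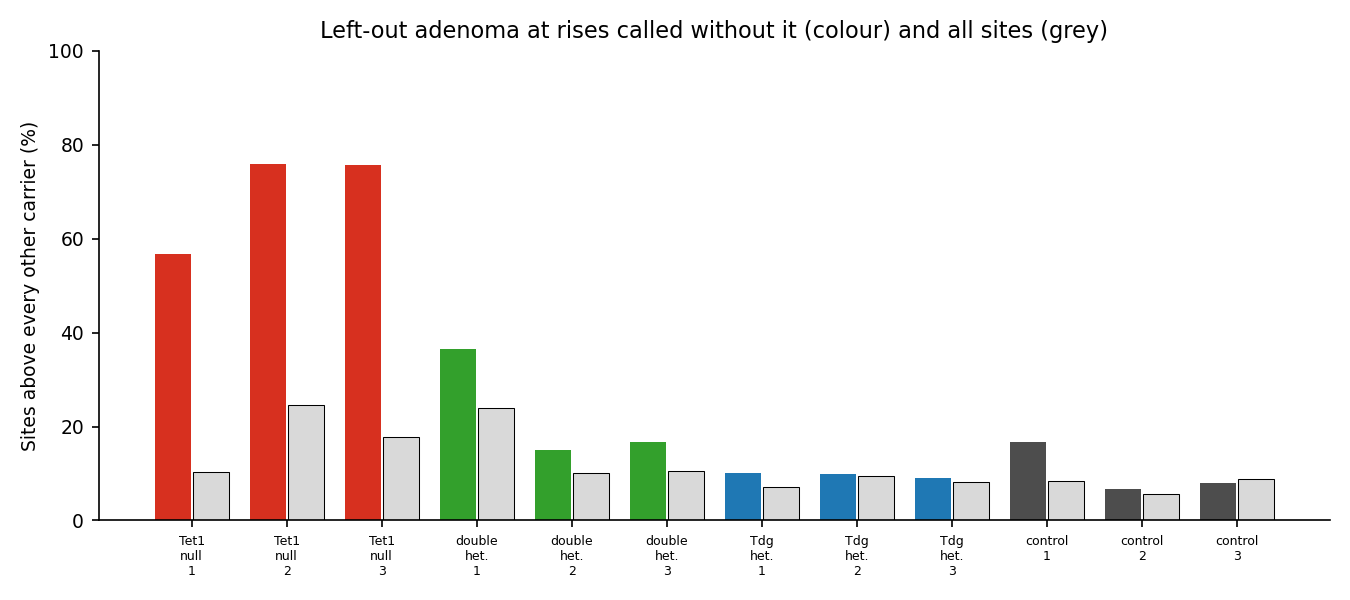
Share of sites (y axis, %) at which an adenoma lay above every other carrier, for rises called without that adenoma (coloured bars) and for all tested sites (grey bars), by adenoma (x axis). The Tet1 null bars reach 56.7 to 75.8%, double heterozygous adenoma 1 reaches 36.5% and the remaining carriers stay at 16.8% or below.

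Overlap between the groups was mostly due to single carriers. At the 181 rises where a carrier reached the lowest Tet1 null value, exactly 1 carrier did so at 105. Double heterozygous adenoma 1 did so at 74 of the 181 sites and each of the other carriers at 37 to 59. Over all tested sites it reached the lowest Tet1 null value at 83.3%, and the other carriers at 71.4 to 80.5%. Tet1 null adenoma 1 was the lowest of the 3 at 211 of the 426 rises (49.5%) and the highest at 120 (28.2%), against 40.9% and 11.4% of all tested sites. Tet1 null adenomas varied more among themselves than carriers did at 336 of the 426 rises (78.9%), by the SD of the levels, against 48.5% of all sites. The rises were selected for higher Tet1 null levels (median 10.6% against 2.43% in carriers), and the part of level in this SD was not tested.

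The double heterozygous adenomas, with 1 copy of Tet1, were placed between the groups at these sites but close to the other carriers. At the 426 rises their median level was 2.77%, against 1.94% in Tdg heterozygous, 2.23% in control and 10.6% in Tet1 null adenomas. They exceeded the Tdg heterozygous mean at 287 of the 426 sites (67.4%), by a median of 0.477 points, against 50.1% of all tested sites. At the 20 named rises they exceeded it at 20 of 20, by a median of 4.72 points, and exceeded control at 18 of 20, against 66.2% of the 426 rises and 55.3% of all tested sites. Without double heterozygous adenoma 1 the counts were 237 of 426 (55.6%, against 37.3% of all sites) and 18 of 20, and the median difference at the 426 rises was 0.115 points. At no single site did the double heterozygous adenomas pass the test against Tdg heterozygous adenomas, and the part of sex in this order was not tested (3 of 3 male against 1 of 3). The shares over all tested sites are not matched for level. Over all sites with a mean below 5%, double heterozygous adenomas were at 0.45% and Tdg heterozygous adenomas at 0.413%. At 5 to 20% their means were 11.9% and 9.99%, and at 20 to 80% 55.3% and 52.7%. Whether the order is particular to the rises was not tested.

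With sex as a covariate, 357 sites were called for Tet1 null adenomas against carriers, 355 of them higher.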

How the data were processed

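DNA of 12 colonic adenomas, with spiked standards added, was cut with SmaI and then XmaI, per the labels' protocols. Trim Galore, Bowtie2 and the mouse build mm9 are named in the submitters' processing notes, without versions. Site names in the tables also carry mm9, although the labels' protocol speaks of a rat genome. Each table gives the authors' read counts with either signature at each CCCGGG site, per the file headers. The protocol states a minimum of 100 reads, and the tables also hold sites below it. The deposited percent values are the raw level and the level that the authors adjusted with the standards, per the labels.

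The filter was 50 reads in each of the 12 adenomas, on autosomes, and 1203 sites whose reads all had the same signature in every adenoma were removed. Counts were tested with edgeR 4.0.16 (R 4.3.3): a quasi-likelihood model of both counts for all 4 genotypes together, with a term for the reads of each adenoma at a site, a methylation term for each genotype, the same library size for both counts, no dispersion trend and no covariate. The main contrast was Tet1 null minus the mean of the 3 carrying genotypes. Two-sided p-values were adjusted over all tested sites (Benjamini-Hochberg, threshold 0.05). Alternatives included limma 3.58.1 on log2 ratios (2 reads added to each count). Single values per adenoma were compared by exact permutation (220 arrangements). Both site tests were tested on simulated data. Clopper-Pearson intervals cover counting error only.

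Named sites were the 20 rises and up to 10 falls with the largest difference among called sites without overlap, and the called sites of contrasts among carriers (up to 3 each). Runs were the 5 with the most rises. The 13 recurrent gains were added after the data were seen. The comparison and its rules were chosen with earlier results of these data known. The gene and promoter tables at hand are of another assembly (GRCm38.p6), so sites were not assigned to genes, and gene lists and sequences were not used here. Replicates were compared first: any pair of the same genotype differed at 25.7 to 45.6% of sites by a chi-square test of reads, so each adenoma was counted as 1 replicate. Sex was taken from Y chromosome reads (0 to 10, or 485 to 3281).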

Additional observations from a re-analysis of the deposited data

Results flagged for a closer look

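Among the 9 carriers, 34 groups of values were searched for a single adenoma far from the rest (Dixon's test at the 95% level), of which chance gives about 1 in 20, or 1.7. Double heterozygous adenoma 1 was the adenoma far from the rest in all 4 that were found. It was at 16.2% at sites of 5 to 20%, where the next carrier was at 12.3%, and at 12.2% at sites with 2 neighbours, where the next was at 11.4%. At position 109311177 on chromosome 14 it was at 15.9% and the next carrier at 5.27%, and at position 29957246 on chromosome 7 it was at 45.3% and the next at 31.1%. Without it 533 sites were called for Tet1 null adenomas against carriers in place of 431.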

How the results depend on the processing

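In each fit that was run, 96.7% or more of the sites called for Tet1 null adenomas were higher. Sites called lower numbered 0 to 7. Called sites in Tet1 null adenomas against carriers (431) were 280 at a minimum of 100 reads, 8 of 125 at 300 reads, 163 with limma, 47 with centred limma, 136 with limma on the logit of the adjusted level, 262 of 6797 at levels of 1 to 99%, 274 with runs, and 243 to 533 with 1 adenoma left out. Against control (297) they were 6 at 300 reads, 65 with limma, 6 centred, 67 on the logit, 174 at 1 to 99%, 158 with runs and 154 to 341 with 1 left out. Against Tdg heterozygous adenomas (291) they were 193 at 100 reads, 5 at 300, 103 with limma, 28 centred, 85 on the logit, 171 with runs and 184 to 341 with 1 left out. Against double heterozygous adenomas (132) they were 1 at 300 reads, 11 with limma, 4 centred, 38 on the logit, 39 at 1 to 99%, 53 with runs and 63 to 153 with 1 left out. Fewer sites enter the fits at higher depth (7696 at 100 reads and 125 at 300) and with limits on level (6797). The fit on runs counts 6864 runs in place of 12978 sites. Counts in these settings are therefore out of other totals than the main ones. For the other settings the cause was not tested.

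With the replicate number as a block, calls were 312 against carriers, 186 against control and 83 against double heterozygous adenomas. Tdg heterozygous adenomas against the other carriers gave 0. Deviations from genotype means correlated at -0.146 to 0.406 over 18 same-numbered pairs (median 0.093, above 0.1 in 7). Over 36 other pairs they correlated at -0.438 to 0.487 (median -0.033, above 0.1 in 6). Of the 12 adenomas, 8 correlated best with one of their own number. Whether the number marks a shared batch was not tested. Among carriers, control against the rest gave 2 at 20 reads and 6 with sex as a covariate (0 to 7 with 1 left out). Tdg heterozygous adenomas against the rest gave 2 without the shallow library, 2 with sex, and 0 at 20, 100 and 300 reads, with limma in its 3 forms, at 1 to 99% and with runs (0 to 2 with 1 left out). Double heterozygous adenomas against the rest gave 0 at 100 and 300 reads, with limma in its 3 forms, with sex, at 1 to 99% and with runs (0 to 7 with 1 left out), and against Tdg heterozygous adenomas 0 to 5 with 1 left out.

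The difference in the share of gained sites was 0.419 to 0.558 points with 1 adenoma left out, and in lost sites -1.07 to -0.154. Gained sites differed by 1.04 points at a limit of 10% and 0.0994 at 30%, and lost sites by -1.84 at a limit of 70%, -0.0881 at 50% and -0.0377 at 100 reads. It was 0.647 to 2.36 in the mean level, 0.233 to 0.338 below 5%, 3.48 to 6.02 at 5 to 20% (4.81 on raw levels, exact permutation p = 0.0636), 1.18 to 6.93 at 20 to 80% and -0.301 to 1.16 at 80% and above. By neighbours it was 0.892 to 3.19 with 0 (0.076 at 100 reads), 0.682 to 3.04 with 1, 0.762 to 1.45 with 2 and 0.250 to 0.395 with 3 or more, and in the standards -0.224 to 0.336 and 0.00222 to 0.150. Of the 21 named sites, 21 kept their call in the 2-group fit and with sex, 20 with the block, 19 with limma and 11 centred. Depth limits the rest: 5282 tested sites, 145 of the rises among them, had under 100 reads in at least 1 adenoma.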
